A study of Mus musculus with 15 samples.

Results

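The genes described here are 10 members of the mammalian microRNA pathway: Dicer1, Drosha, Dgcr8, Xpo5, Tarbp2, Prkra and the Argonaute genes Ago1, Ago2, Ago3 and Ago4. They were taken by symbol from the annotation of the array, out of 16593 genes with a probe of 1 symbol, and 16 probes represented them. Messenger RNA of 5 groups of sorted thymic cells, from mice 4 weeks old, was hybridised to 15 Illumina bead arrays of 1 colour, 3 per group. All mice carried homozygous floxed Dicer alleles. Knockout (KO) mice were Dicer lox/lox CD4-Cre +/-, so that Cre is driven by the CD4 promoter and acts only once a developing thymocyte uses it, and the mice called wild type (WT) were Dicer lox/lox CD4-Cre -/-. Invariant NKT (iNKT) cells, T cells that recognise lipids on CD1d, were sorted as HSA low, TCRβ intermediate and CD1d tetramer positive. KO iNKT cells were not split by maturity. WT iNKT cells were split into stage 3, which is NK1.1 + and CD44 high, and stage 1-2, which is less mature, NK1.1 - and either high or low for CD44. KO T and WT T cells were HSA low, TCRβ positive and CD1d tetramer negative. Whether replicate arrays stand for different mice is not stated in the labels, and the p-values may then measure technical spread.

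MicroRNAs are cut from hairpins in longer transcripts. In the nucleus the Microprocessor, made of the RNase Drosha and the RNA-binding protein Dgcr8, releases the hairpin, and Exportin-5, the product of Xpo5, carries it to the cytoplasm. There Dicer, bound by the double-stranded RNA-binding proteins TRBP (Tarbp2) or PACT (Prkra), cuts off the loop, and an Argonaute protein takes up 1 strand and uses its seed to find messenger RNAs. Loss of Dicer in thymocytes is known to leave few iNKT cells.

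The arrays measured messenger RNAs, not microRNAs. Both mature microRNAs below are well-known products of the pathway in lymphocytes and show the kind of molecule it makes. Sequences here are from RefSeq (mouse build GRCm38.p6), written 5′ to 3′ with the seed, bases 2 to 8, in capitals. The first, at chr1:137966468-137966490 on the plus strand, is needed for iNKT cell development in mice, and the second lies at chr16:84714143-84714165 on the plus strand.
mmu-miR-181a-5p: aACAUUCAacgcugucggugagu
mmu-miR-155-5p: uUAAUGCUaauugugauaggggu

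Of the 10 genes, 2 hold annotated microRNA hairpins within their own locus, Dgcr8 with 2 and Xpo5 with 1, and their arms are shown because the host transcripts are themselves members. The Microprocessor is known to cut hairpins in the Dgcr8 transcript, which lowers Dgcr8. On chromosome 16 minus strand, the Dgcr8 arms lie at chr16:18284248-18284268 and chr16:18284288-18284310 (mmu-miR-1306-3p and mmu-miR-1306-5p) and at chr16:18284562-18284583 and chr16:18284602-18284623 (mmu-miR-3618-3p and mmu-miR-3618-5p). On the plus strand of chromosome 17, the Xpo5 arms lie at chr17:46231551-46231571 and chr17:46231581-46231603 (mmu-miR-693-5p and mmu-miR-693-3p).
mmu-miR-1306-3p: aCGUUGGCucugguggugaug
mmu-miR-1306-5p: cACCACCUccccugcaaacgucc
mmu-miR-3618-3p: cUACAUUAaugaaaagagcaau
mmu-miR-3618-5p: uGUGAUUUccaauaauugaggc
mmu-miR-693-5p: cAGCCACAuccgaaaguuuuc
mmu-miR-693-3p: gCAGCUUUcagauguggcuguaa
None of these 8 arms shares its seed with another.

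The values below are log2 intensities after background correction and quantile normalization, and a probe counted as detected on an array at a detection p-value under 0.05. Arrays differed in how much they detected, with 29.2% of probes on stage 3 replicate 2 and 30.3% on stage 1-2 replicate 1, against 32.5% to 40.8% on the other 13 arrays. Both of these arrays detected 6 of the 16 member probes, and the others 7 to 11. Markers of other cells also moved with the iNKT groups. The mean level of the 13 myeloid genes on the array was 9.19 to 11.17 in KO iNKT, 5.59 to 6.82 in stage 3 and 9.01 to 9.45 in stage 1-2 samples, against 4.46 to 4.49 in KO T and 4.48 to 4.52 in WT T samples, where 11 and 12 of the 13 genes were detected on no array. The 6 B cell genes stood at 7.68 to 8.79 in KO iNKT, 5.43 to 5.95 in stage 3 and 7.34 to 8.77 in stage 1-2 samples, against 4.55 to 4.85 in KO T and 4.78 to 4.88 in WT T samples. The 7 T cell genes ran the other way, with 9.07 to 9.55 in KO iNKT, 10.49 to 10.52 in stage 3, 9.49 to 10.28 in stage 1-2, 10.75 to 11.03 in KO T and 10.81 to 10.95 in WT T samples. The 5 iNKT genes stood at 6.94 to 7.52 in KO iNKT, 8.66 to 8.73 in stage 3 and 7.50 to 7.81 in stage 1-2 samples, against 5.51 to 5.52 in KO T and 5.89 to 5.93 in WT T samples. They include Klrb1c and Cd44, the genes of both surface markers by which WT iNKT cells were split. Differences of this list that involve stage 3 or stage 1-2 cells were therefore set in part by the sort. The 8 genes of double-positive thymocytes, the precursors of these cells, stood at 5.97 to 6.44 in KO iNKT, 4.95 to 5.25 in stage 3, 5.44 to 6.05 in stage 1-2, 5.66 to 5.88 in KO T and 5.55 to 5.61 in WT T samples. The 15 cell cycle genes stood at 7.13 to 8.05 in KO iNKT, 6.25 to 6.63 in stage 3, 7.75 to 7.86 in stage 1-2, 7.07 to 7.20 in KO T and 7.22 to 7.33 in WT T samples. The erythroid gene Hba-a1 lay between 4.47 and 8.41 in stage 3 samples and between 4.29 and 5.34 in the other 4 groups. Of the B cell list, Cd79b, H2-Aa, H2-Ab1 and Cd74 were tested and are counted below, and Cd79a and Ms4a1 were not. Whether the signal of that list comes from B cells was not tested. The part of all these markers in the changes of the iNKT groups below was not tested. In sorted bulk samples like these, fewer cells of a type and less RNA per cell cannot be told apart.

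Of the 10 genes, 7 had at least 1 probe detected on all 3 arrays of a group and were tested, through 9 of the 16 probes: Drosha, Dgcr8, Xpo5, Dicer1, Tarbp2, Prkra and Ago2. Drosha, Dicer1, Ago2 and 1 probe of Tarbp2 were detected on all 15 arrays, Xpo5 on 13, and Dgcr8 and Prkra on 11 each. The passing of this filter was uneven, since Prkra passed through KO iNKT cells alone and Dgcr8 through KO T cells alone. Ago1, Ago3 and Ago4 were not tested.

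**Figure D1:**
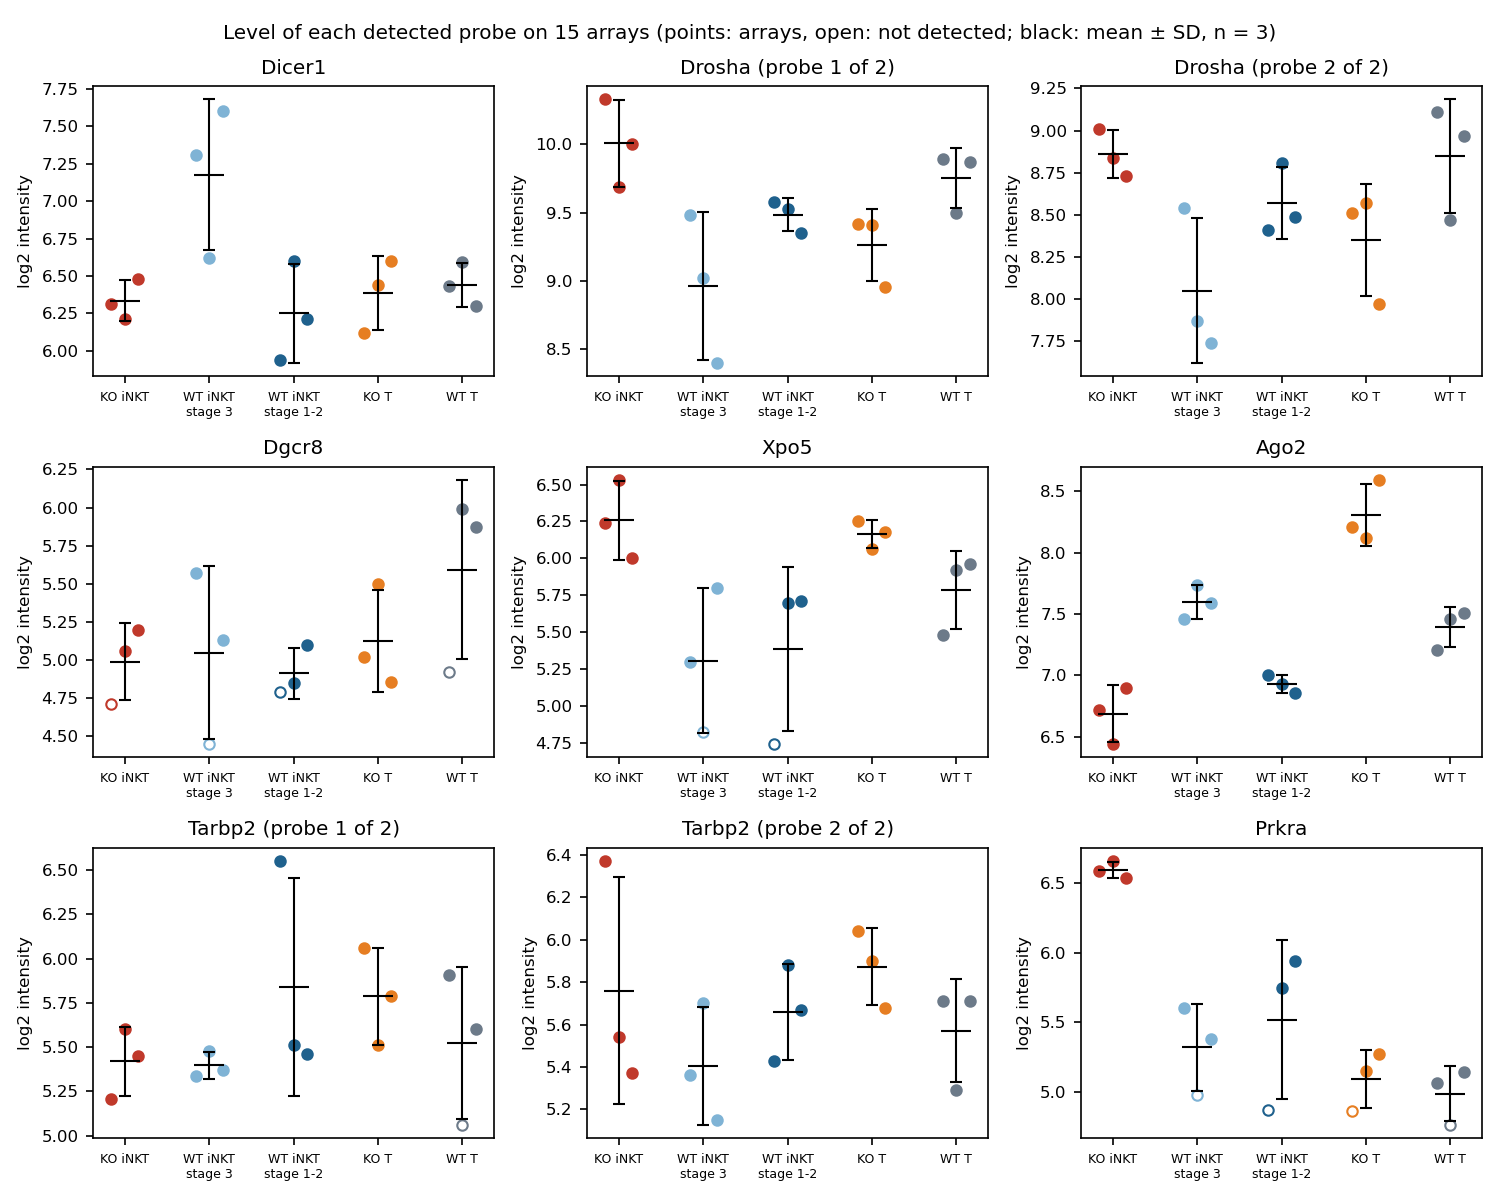
Log2 intensity (vertical axes, each with its own range) of the 9 probes of tested genes on the 15 arrays, by group. Points are arrays, open where the probe was not detected, and black bars are the mean ± SD of 3 arrays. Prkra is highest on the KO iNKT arrays, Dicer1 on the stage 3 arrays and Ago2 on the KO T arrays. For Tarbp2, the probe marked 2 of 2 represents the gene in the fit.

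The gene deleted in the KO mice is Dicer1. Its probe (ILMN_1215331) read 6.31, 6.21 and 6.48 on the KO iNKT arrays, 7.31, 6.62 and 7.60 on the stage 3 arrays and 5.94, 6.60 and 6.21 on the stage 1-2 arrays. It read 6.12, 6.44 and 6.60 on the KO T arrays and 6.43, 6.59 and 6.30 on the WT T arrays. Stage 3 stood above the other 4 groups without overlap, and those 4 groups overlapped each other, with means between 6.25 and 6.44. The change was -0.06 between KO T and WT T cells (95% interval -0.58 to 0.47, adjusted p = 0.977, limma) and 0.08 between KO iNKT and stage 1-2 cells (-0.44 to 0.61, adjusted p = 0.906, limma). Where this probe lies relative to the deleted exons is not given in the sources used here, and a probe outside them can still read the transcript of a recombined allele. Its level therefore checks neither the deletion nor the labels.

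KO iNKT cells were set against WT stage 1-2 iNKT cells to ask what differs between iNKT cells of KO mice and the less mature WT cells. Prkra, which encodes the Dicer partner PACT, rose, and it was 1 of 7 tested genes that passed, where 3.01% of all 6838 genes did and 1.96% rose. Its probe (ILMN_3161021) read 6.59, 6.66 and 6.54 in KO iNKT cells and 4.87, 5.75 and 5.94 in stage 1-2 cells. The 3 KO arrays lay close together and above every other array of the series, and the lowest stage 1-2 value was not detected. The log2 change was 1.07 ± 0.25 (SE), a 2.10-fold difference (95% interval 0.54 to 1.61 on the log2 scale, adjusted p = 0.0269, limma). Prkra would not have been tested but for its detection on the KO iNKT arrays, and with no filter on detection its adjusted p was 0.0600 (limma). That low stage 1-2 array was also one of the pair with the least detection. Without it the change was 0.76 (adjusted p = 0.111, limma), and without both arrays of the pair 0.77 (adjusted p = 0.0686, limma). Without KO iNKT replicate 1 or 2 or stage 1-2 replicate 2 the adjusted p of Prkra was 0.0971, 0.0807 and 0.0517 (limma). With both groups fitted alone it was 0.144, and with arrays scaled to a common median the change was 0.28 (adjusted p = 0.799, limma). Without background correction the change still passed but measured 0.39 (adjusted p = 0.0280, limma).

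Xpo5, the export receptor, read 6.24, 6.53 and 6.0 in KO iNKT cells and 4.74, 5.70 and 5.71 in stage 1-2 cells (probe ILMN_1216198). The groups did not overlap, but the change of 0.87 ± 0.28 (SE) missed the threshold (adjusted p = 0.103, limma), and the stage 1-2 value of 4.74 was not detected. Drosha, the nuclear RNase, read 10.33, 9.69 and 10 in KO iNKT cells and 9.58, 9.53 and 9.35 in stage 1-2 cells on the probe that represents it in the fit (ILMN_3066222), a change of 0.52 ± 0.26 (adjusted p = 0.299, limma). On its other probe (ILMN_3144358) the groups overlapped, at 9.01, 8.84 and 8.73 in KO iNKT cells and 8.41, 8.81 and 8.49 in stage 1-2 cells. Prkra, Xpo5 and Drosha, the last on the probe in the fit alone, thus lay higher without overlap, as did 10% of all genes. Prkra was tested only through the KO iNKT arrays, and neither Prkra nor Xpo5 was detected on all stage 1-2 arrays. Their non-overlap alone is therefore no call. Beside these values, 3 of 12 tested myeloid genes, 1 of 5 double-positive thymocyte genes and 1 of 14 cell cycle genes rose and 1 of 7 T cell genes fell in KO iNKT cells, and of 5 iNKT genes 1 rose and 2 fell. Changes of the remaining 4 genes were between -0.24 (Ago2, adjusted p = 0.558, limma) and 0.10 (Tarbp2, adjusted p = 0.889, limma).

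Against the mature stage 3 cells, 5 of the 7 tested genes changed in KO iNKT cells, where 29.9% of all genes passed. Prkra, Drosha and Xpo5 were higher, as were 16% of all genes, and Ago2 and Dicer1 were lower, as were 14%. None of these 5 overlapped between the groups, and 39.1% of all genes did not. Prkra was among the tested genes only because it was detected on the KO iNKT arrays, where it was highest. This comparison sets unsplit KO cells against 1 WT stage, so that genotype and stage cannot be told apart in it.

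In the Microprocessor, Drosha rose. The probe in the gene fit read 10.33, 9.69 and 10 in KO iNKT cells and 9.48, 9.02 and 8.40 in stage 3 cells, a change of 1.04 ± 0.26 (SE) or 2.05-fold (adjusted p = 0.00601, limma). The other probe read 9.01, 8.84 and 8.73 in KO iNKT cells and 8.54, 7.87 and 7.74 in stage 3 cells, and rose by 0.81 in the fit of every detected probe (adjusted p = 0.0228, limma), in which 29.1% of 8906 probes passed. The probes of Drosha moved alike over the 15 arrays (Pearson r = 0.91, as a description over arrays that share groups and normalization). Dgcr8, its partner, was close to the detection limit, at 4.71, 5.06 and 5.20 in KO iNKT cells and 5.57, 4.45 and 5.13 in stage 3 cells (probe ILMN_1226133). With 1 undetected array in each group, its change was -0.06 (95% interval -0.70 to 0.58, adjusted p = 0.904, limma).

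Xpo5 rose by 0.95 ± 0.28 (SE), a 1.93-fold difference, with 6.24, 6.53 and 6.0 in KO iNKT cells and 5.30, 4.82 and 5.80 in stage 3 cells (adjusted p = 0.0178, limma). The 4.82, on stage 3 replicate 2, was not detected, and without that array the adjusted p was 0.0863 (limma). Without KO iNKT replicate 2, the highest of the 3, it was 0.0813 (limma).

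At the Dicer step, Dicer1 fell by 0.84 ± 0.25 (SE) on the log2 scale, with 6.31, 6.21 and 6.48 in KO iNKT cells and 7.31, 6.62 and 7.60 in stage 3 cells (adjusted p = 0.0167, limma). The call was lost without KO iNKT replicate 2 (adjusted p = 0.0622), stage 3 replicate 1 (0.0524) or stage 3 replicate 3 (0.0837, limma), and with both groups fitted alone (0.0572). Its partner Prkra rose by 1.28 ± 0.25 (SE), a 2.43-fold difference, with 6.59, 6.66 and 6.54 in KO iNKT cells and 5.60, 4.98 and 5.38 in stage 3 cells (adjusted p = 0.00117, limma). Prkra passed with each of the 6 arrays of both groups left out in turn, and without the pair of least detection its change was 1.15 (adjusted p = 0.00120, limma). As above, it was tested only through its detection on the KO iNKT arrays, and the stage 3 value of 4.98 was not detected. With no filter on detection its adjusted p was 0.00394 (limma). The other partner, Tarbp2, read 6.37, 5.54 and 5.37 in KO iNKT cells and 5.36, 5.70 and 5.15 in stage 3 cells on probe ILMN_2939990, with overlapping groups and a change of 0.36 (adjusted p = 0.308, limma).

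Among the Argonautes Ago2, the one with slicer activity in mammals, fell by 0.91 ± 0.20 (SE) on the log2 scale (adjusted p = 0.00218, limma). Its probe (ILMN_2609056) read 6.72, 6.44 and 6.90 in KO iNKT cells and 7.46, 7.74 and 7.59 in stage 3 cells, and it passed with each of the same 6 arrays left out in turn. In the same comparison 11 of 12 tested myeloid, 4 of 4 B cell and 10 of 14 cell cycle genes rose, as did 4 of 5 genes of double-positive thymocytes (median change 2.30), and 6 of 7 T cell genes and 3 of 5 iNKT genes (median change -1.51) fell. No member passed when arrays were scaled to a common median in place of quantile normalization, although the 5 changes kept their directions. Without background correction all 5 passed with smaller changes, of 0.46 for Prkra, 0.88 for Drosha, 0.31 for Xpo5, -0.49 for Ago2 and -0.42 for Dicer1.

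WT stage 3 cells, set against WT stage 1-2 cells, show how the pathway differs between maturation stages with Dicer present. The comparison shares the stage 3 arrays with the one above. Dicer1 and Ago2 rose, 2 of 7 tested genes, where 20.1% of all genes passed and 9.11% rose. Neither overlapped between the stages, and 32.6% of all genes did not. Dicer1 read 7.31, 6.62 and 7.60 in stage 3 cells and 5.94, 6.60 and 6.21 in stage 1-2 cells, a change of 0.93 ± 0.25 (SE) or 1.90-fold (95% interval 0.40 to 1.45, adjusted p = 0.0143, limma). The lowest stage 3 array, 6.62, was only just above the highest stage 1-2 array, 6.60. Ago2 read 7.46, 7.74 and 7.59 in stage 3 cells and 7.0, 6.93 and 6.86 in stage 1-2 cells, a change of 0.67 ± 0.20 or 1.59-fold (adjusted p = 0.0237, limma). All 3 stage 3 arrays lay well apart from the stage 1-2 arrays.

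In that comparison the changes of the other 5 tested genes lay between -0.52 (Drosha, adjusted p = 0.170, limma) and 0.14 (Dgcr8). The Dicer1 call was lost without stage 1-2 replicate 1 (adjusted p = 0.0598) or stage 3 replicate 3 (0.0714), and the Ago2 call without stage 1-2 replicate 2 (0.0558) or 3 (0.0662) or stage 3 replicate 2 (0.0777) or 3 (0.0521, limma). Without stage 3 replicate 1, Drosha passed at -0.77 (adjusted p = 0.0473, limma). With both stages fitted alone neither gene passed, at 0.0762 for Dicer1 and 0.0831 for Ago2 (limma), and neither passed with median scaling. Without background correction both passed, with changes of 0.45 for Dicer1 and 0.38 for Ago2. Beside these changes, 10 of 12 myeloid, 4 of 4 B cell, 10 of 14 cell cycle and 2 of 5 double-positive thymocyte genes fell and 2 of 7 T cell genes rose in stage 3 cells, and of 5 iNKT genes 3 rose and 1 fell. The iNKT count was set in part by the sort, since the list holds Klrb1c and Cd44.

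**Figure D2:**
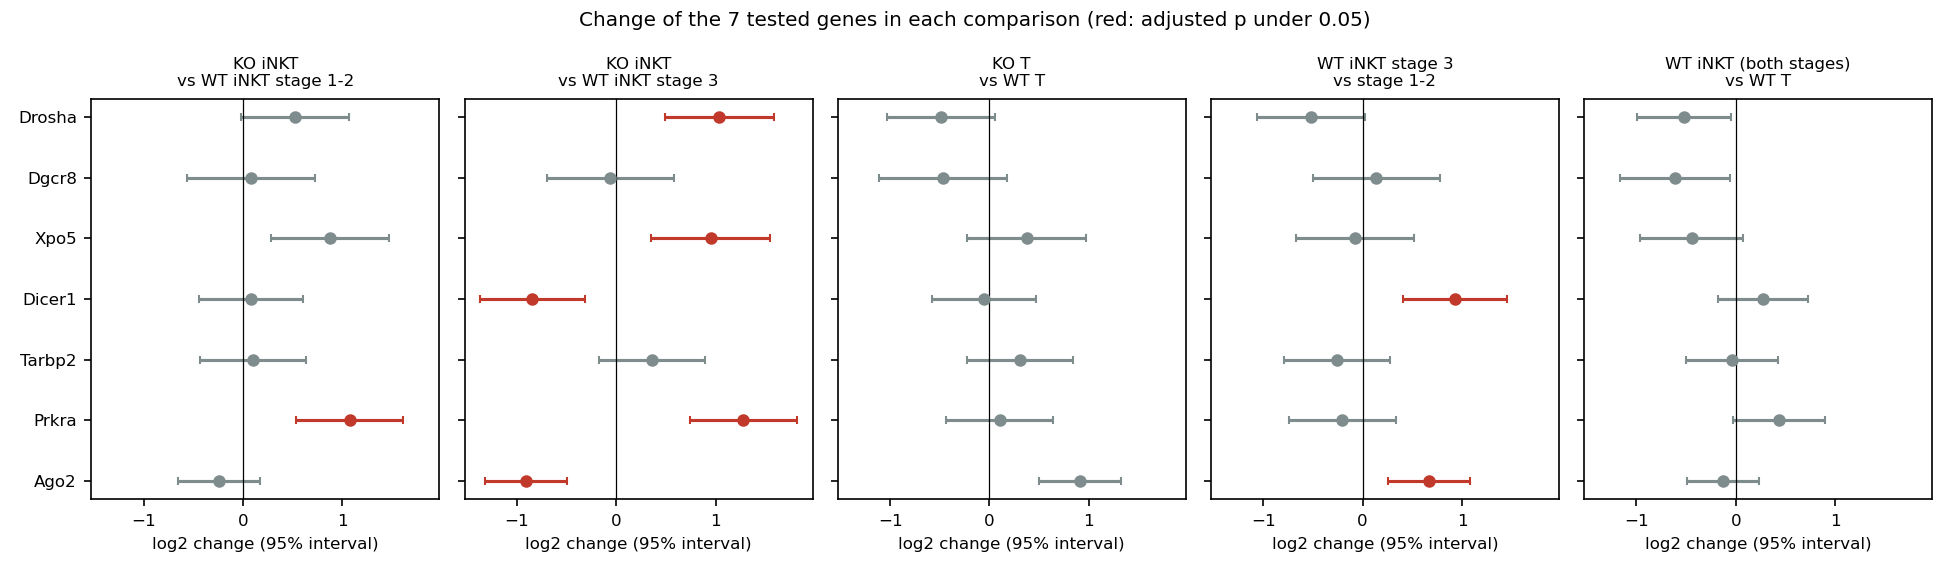
Log2 change (horizontal axes) of the 7 tested genes in 5 comparisons, ordered down the page by their step in the pathway. Points are fitted changes and bars 95% intervals, in red where the adjusted p was under 0.05: 1 gene against stage 1-2, 5 against stage 3, 0 between the T cells, 2 between the stages and 0 between WT iNKT and WT T cells. The shares over all genes were 3.01%, 29.9%, 0.146%, 20.1% and 23.6%, in the same order.

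KO T cells, set against WT T cells, have the same sort and lack the myeloid signal. None of the 7 tested genes passed (limma), where 0.146% of all genes did, 10 in number, and 647 genes had an unadjusted p under 0.05. Ago2 came nearest, at rank 22 of 6838 by p. It read 8.21, 8.12 and 8.59 in KO T cells and 7.21, 7.46 and 7.51 in WT T cells. The KO T arrays were the 3 highest of all 15, and the groups stood apart by more than the spread within either. The change was 0.91 ± 0.20 (SE), 1.88-fold, with a 95% interval of 0.50 to 1.33 and an adjusted p of 0.0677 (limma).

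That Ago2 value lay close to the threshold, and under 4 alternatives it passed. Without background correction the change was 0.60 (adjusted p = 0.0118), in the table as the authors normalized it 0.66 (0.0113), with no detection filter 0.91 (0.0442) and with a trended, robust prior 0.91 (0.0485, limma). With each of the 6 T cell arrays left out in turn it did not pass.

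The other T cell values were smaller. Drosha read 9.42, 9.41 and 8.96 in KO T cells and 9.89, 9.50 and 9.87 in WT T cells on the probe in the gene fit, without overlap, and its change was -0.49 (adjusted p = 0.577, limma). The other probe read 8.51, 8.57 and 7.97 in KO T cells and 9.11, 8.47 and 8.97 in WT T cells, which overlapped. Xpo5 read 6.25, 6.06 and 6.18 in KO T cells and 5.48, 5.92 and 5.96 in WT T cells, with a change of 0.37 (adjusted p = 0.707, limma). Of all genes, 21.2% did not overlap between KO T and WT T arrays, so that non-overlap of Ago2, Drosha and Xpo5 alone is no call. Dgcr8 read 5.02, 5.50 and 4.86 in KO T cells and 4.92, 5.99 and 5.87 in WT T cells, and Prkra 4.86, 5.15 and 5.27 in KO T cells and 5.06, 4.76 and 5.14 in WT T cells, so both overlapped. The KO-to-WT changes of Dgcr8, Tarbp2 and Prkra were -0.47, 0.31 and 0.10 (adjusted p = 0.651, 0.750 and 0.954, limma).

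The KO effect in iNKT cells (against stage 1-2) was compared with that in T cells by the difference of both changes. The iNKT change sets unsplit KO cells against 1 WT stage, so that it holds both genotype and stage. None of the 7 genes passed (limma), where 0.175% of all genes did, and 590 genes had an unadjusted p under 0.05. Ago2 again came nearest. Its change was -0.24 in iNKT cells and 0.91 in T cells, a difference of -1.16 ± 0.28 (SE; 95% interval -1.74 to -0.57, adjusted p = 0.140, limma). Without KO iNKT replicate 3 the difference was -1.26 and passed (adjusted p = 0.0325, limma). Prkra differed by 0.97 (adjusted p = 0.409, limma) and Drosha by 1.01 (adjusted p = 0.390, limma), so no difference between the KO effects passed for a member. Beside these values, the median difference was 1.40 over the myeloid, 0.96 over the B cell and 0.91 over the double-positive thymocyte genes. It was -0.50 over the T cell, -0.03 over the iNKT and 0.03 over the cell cycle genes, and no gene of these lists passed.

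WT iNKT cells, as the mean of both stages, were compared with WT T cells to ask whether the lineages differ in their microRNA machinery. None of the 7 genes passed (limma), where 23.6% of all genes did, and 2442 genes had an unadjusted p under 0.05. The log2 change was -0.52 for Drosha (adjusted p = 0.101), -0.61 for Dgcr8 (0.103), -0.44 for Xpo5 (0.209), 0.43 for Prkra (0.171), 0.27 for Dicer1 (0.395), -0.13 for Ago2 (0.628) and -0.04 for Tarbp2 (0.918, limma). A mean of both stages can hide opposite shifts. Dicer1 averaged 7.18 in stage 3 and 6.25 in stage 1-2 cells, against 6.44 in WT T cells. Ago2 averaged 7.60 and 6.93, against 7.39. Neither stage was tested alone against WT T cells. Beside these values, 11 of 12 tested myeloid genes, 3 of 4 B cell genes and 5 of 5 iNKT genes rose and 4 of 7 T cell genes fell in WT iNKT cells. Of the double-positive thymocyte list 2 of 5 genes were higher and 1 was lower, and of 14 cell cycle genes 1 rose and 2 fell. The result turned on single arrays for 3 genes. Prkra passed at 0.61 without stage 1-2 replicate 1 (adjusted p = 0.0271, limma) and at 0.72 without both arrays of least detection (0.00913). Without stage 3 replicate 1, Drosha passed at -0.65 (0.0328) and Dgcr8 at -0.74 (0.0452), and without WT T replicate 1 Dgcr8 passed at -0.95 (0.0223, limma). Dgcr8 and Prkra were each detected on 2 of 3 arrays in each of these WT groups. For Dgcr8, WT T replicate 1 (4.92) was not detected, and stage 3 replicate 1 (5.57) was the highest WT iNKT array. For Prkra, stage 1-2 replicate 1 (4.87) was not detected. The Dgcr8 and Prkra calls thus depend on values near the detection limit.

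Across the 5 groups, Ago2 had the widest range of group means among the tested genes, from 8.31 in KO T cells over 7.60 in stage 3, 7.39 in WT T and 6.93 in stage 1-2 cells down to 6.69 in KO iNKT cells. KO T did not overlap stage 3, nor WT T stage 1-2, while stage 3 overlapped WT T and stage 1-2 overlapped KO iNKT. The group means of Prkra spanned nearly as much, at 6.60, 5.32, 5.52, 5.09 and 4.99 in KO iNKT, stage 3, stage 1-2, KO T and WT T cells, and apart from KO iNKT each group overlapped the next. Drosha stood in the order KO iNKT, WT T, stage 1-2, KO T and stage 3 on both probes, with every neighbour overlapping. The Dgcr8 means lay between 4.91 and 5.60, also with every neighbour overlapping.

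The probes of Tarbp2 did not move together (Pearson r = 0.06 over 15 arrays, as a description). On ILMN_2939990 KO iNKT replicate 1 was the highest array, at 6.37, and on ILMN_2649955 it was stage 1-2 replicate 1, at 6.55. Between KO iNKT and stage 1-2 cells the changes were 0.10 and -0.42 on these probes (adjusted p = 0.888 and 0.451 in the fit of every detected probe, limma). No direction can be given for Tarbp2.

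**Figure D3:**
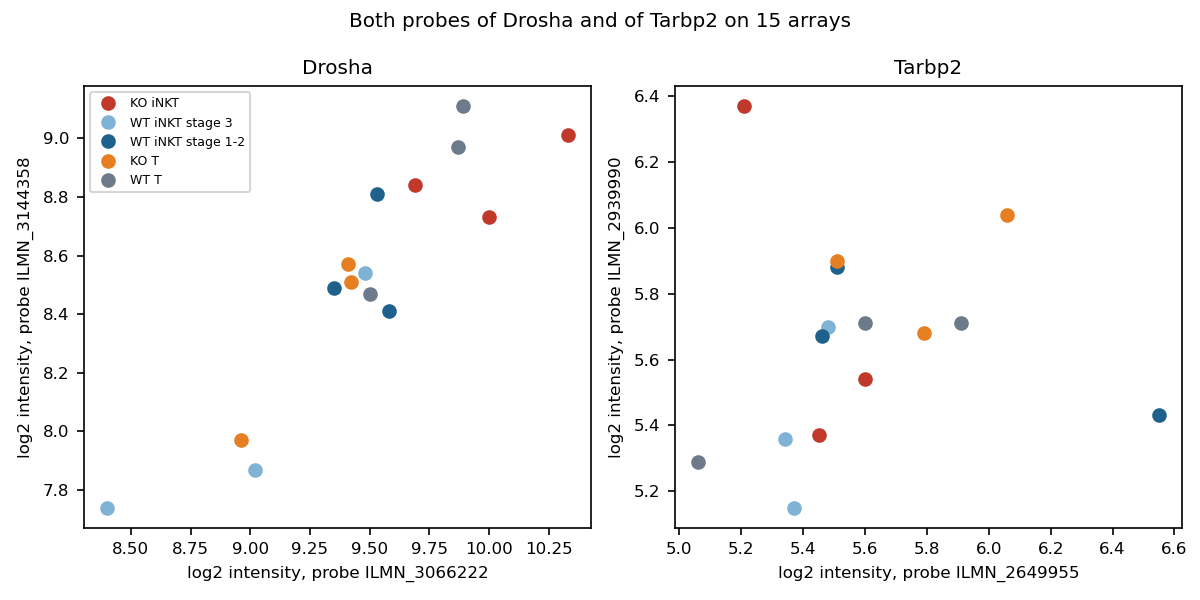
Log2 intensity of the probes of Drosha (left) and of Tarbp2 (right) on the 15 arrays, 1 probe on each axis, coloured by group. The Drosha probes rise together (r = 0.91), and the Tarbp2 probes do not (r = 0.06).

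Of the Argonautes, Ago2 alone was detected on all arrays. The probe of Ago1 was detected on 0 of 15 arrays, the 2 probes of Ago4 in 0 of 30 array and probe pairs, and the 4 probes of Ago3 in 3 of 60. The normalized levels of Ago1 were 4.29 to 4.57, of Ago3 4.28 to 5.11 and of Ago4 4.23 to 5.19, and these have only an upper bound. In a fit without the filter none of the 3 passed in any comparison, with adjusted p of 0.481 or more (limma). That fit held 1 probe per gene, ILMN_2634914 for Ago3 and ILMN_1219109 for Ago4, so the other probes of both genes were not tested. Whether the transcripts are rare or the probes weak was not tested, and the arrays do not rank the Argonautes against each other.

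**Figure D4:**
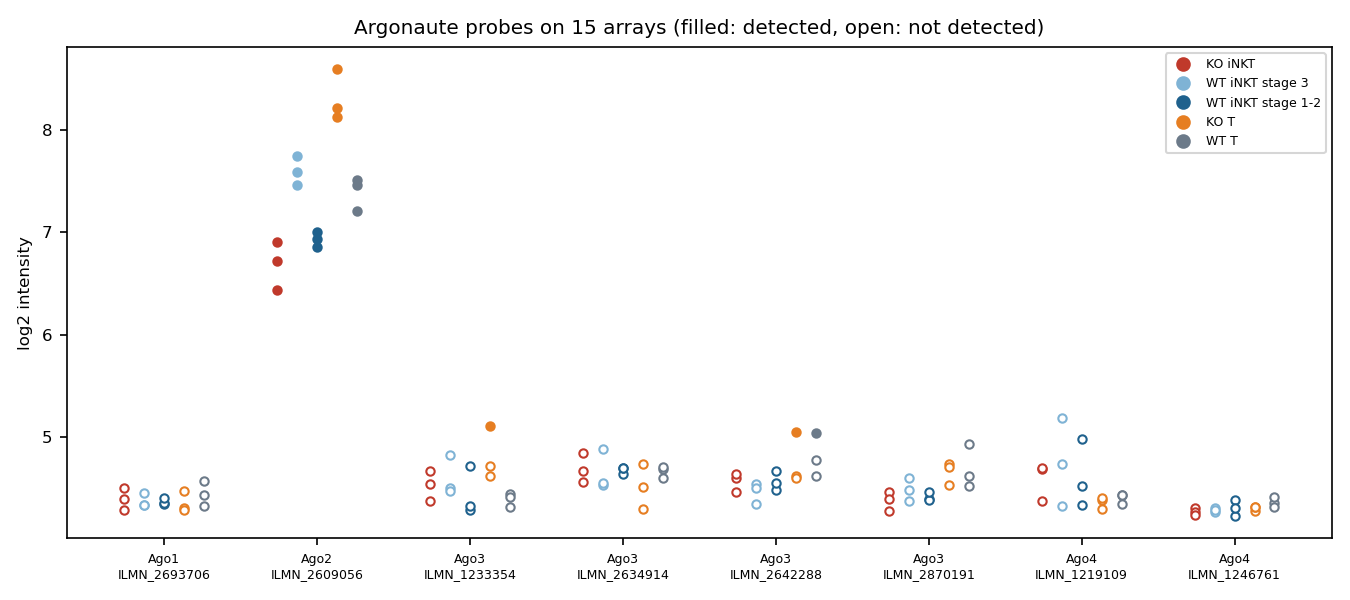
Log2 intensity of the 8 Argonaute probes on the 15 arrays, by group; filled points were detected and open points were not. The Ago2 probe is detected on every array, highest on the KO T arrays (8.12 to 8.59), and the Ago1, Ago3 and Ago4 probes lie between 4.23 and 5.19. Heights of different probes are not comparable.

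Other genes of the pathway were read from a list of 52, covering partners of processing, Argonaute loading, silencing effectors, decay factors and germline Argonautes, of which 46 were on the array and 34 were tested. Between KO iNKT and stage 1-2 cells 0 of 34 passed (median change -0.04, against -0.01 over all genes), and between KO T and WT T cells also 0 of 34 (median 0.11, against 0.00), both by limma. In the difference of the KO effects 0 of 34 passed as well. Of all genes 3.01%, 0.146% and 0.175% passed in these comparisons, so counts of 0 do not set the list apart from all genes.

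Between KO iNKT and stage 3 cells 1 of 34 rose and 6 fell, with a median change of -0.13, against -0.01 over all genes. Of all genes 16% rose and 14% fell there, 29.9% together, so the share of the list that passed in either direction was not above that of all genes. By direction, the share of the list that rose was below that of all genes, and the share that fell was slightly above it. Ddx5, an RNA helicase that works with the Microprocessor, read 7.13, 7.23 and 6.44 in KO iNKT cells and 8.07, 9.03 and 8.65 in stage 3 cells, and fell by 1.65 on the log2 scale (adjusted p = 0.00320, limma). Tnrc6b, a GW182 protein that binds Argonaute and recruits deadenylases, read 4.57, 4.55 and 5.02 in KO iNKT cells and 5.17, 5.86 and 5.97 in stage 3 cells and fell by 0.95 (adjusted p = 0.00888, limma). Its KO iNKT values lay in the range of the Ago1, Ago3 and Ago4 probes, 4.23 to 5.19, close to the detection limit. Adar, an editor of double-stranded RNA, fell by 0.90 (adjusted p = 0.0221, limma), and Tsnax, a subunit of the nuclease C3PO, by 0.76 (adjusted p = 0.0241, limma). Edc4, a scaffold of decapping, and Xrn1, an exonuclease of RNA decay, also fell, by 0.83 (adjusted p = 0.0446) and 0.68 (adjusted p = 0.0467, limma). The groups overlapped for Xrn1, at 5.71, 5.33 and 4.83 in KO iNKT cells and 5.97, 5.67 and 6.29 in stage 3 cells. Its value of 4.83 also lay in the range of the Ago1, Ago3 and Ago4 probes. Limd1, a partner of Argonaute and the one that rose, read 7.36, 7.23 and 7.18 in KO iNKT cells and 6.84, 6.49 and 6.59 in stage 3 cells, a change of 0.62 (adjusted p = 0.0286, limma).

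Between stage 3 and stage 1-2 cells 2 of 34 rose and 0 fell, with a median change of 0.03, against 0.00 over all genes. The share was below that of all genes, of which 20.1% passed and 9.11% rose. Cnot6l, a deadenylase of the CCR4-NOT complex, rose by 0.88 (adjusted p = 0.0256, limma), with 7.16, 7.93 and 7.32 in stage 3 and 6.25, 6.99 and 6.52 in stage 1-2 cells. Tnrc6b rose by 0.82 (adjusted p = 0.0296, limma), with 5.17, 5.86 and 5.97 in stage 3 and 4.48, 5.10 and 4.97 in stage 1-2 cells. Its stage 1-2 values also lay close to the detection limit, in the range of the Ago1, Ago3 and Ago4 probes (4.23 to 5.19).

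Between WT iNKT and WT T cells 2 of 34 rose and 1 fell, with a median change of -0.21, against -0.05 over all genes. The share that passed was below that of all genes, 23.6%. Ddx6, a helicase of translational repression, was 0.64 higher in WT iNKT cells (adjusted p = 0.0231, limma), and Snd1, a nuclease linked to RISC, was 0.53 higher (adjusted p = 0.0357, limma). Tnrc6a, a second GW182 protein, fell by 0.77 (adjusted p = 0.0304, limma), with 8.81, 8.46 and 9.07 in stage 3 and 8.46, 8.22 and 8.06 in stage 1-2 cells, against 9.16, 9.78 and 8.90 in WT T cells.

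The genes with levels most like those of Dicer1 over the 15 arrays, by Pearson r, were Atp8a2 (0.872), Arid5b (0.856), Fgd6 (0.847), Sytl2 (0.846) and Irak2 (0.842). For Ago2 they were Marchf6 (0.936), Smarca2 (0.911), Ube2d3 (0.903), Saraf (0.901) and Jakmip1 (0.899). These are the highest values among 6838 genes over arrays that share groups and normalization, and they are given as a description. Among the 7 tested members the strongest correlations were those of Ago2 with Prkra (r = -0.67) and of Dicer1 with Drosha (r = -0.57), also descriptions.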

How the data were processed

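The authors deposited a table, non-normalized per the file headers, which holds, for every array, linear average intensities and detection p-values of the probes, and a second intensity table that they normalized, used as an alternative alone. GenomeStudio is named in the submitters' processing notes, without a version; the labels give RNA labelling with biotin. Of 25697 probes 23978 carried 1 symbol and 1719 had several or none and were not used. Gene symbols were checked against RefSeq, where 16 identifiers were missing. Every array matched its own column in the second table, and no arrays were identical.

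Intensities were background corrected and quantile normalized with neqc of limma 3.58.1 (R 4.3.3, offset 16). Probes with a detection p-value under 0.05 on all 3 arrays of a group were kept, 1 per gene (highest mean), leaving 6838 genes. A mean per group was fitted over 15 arrays (10 residual degrees of freedom) with eBayes. Calls were two-sided at a Benjamini-Hochberg adjusted p under 0.05. A second fit held all 8906 detected probes. Fold changes are ratios of normalized intensity. In simulated data for KO iNKT against stage 1-2 cells (6838 genes), the share recovered was 8% at a 1.5-fold change, 56% at 2-fold, 90% at 3-fold and 100% at 4-fold. There, 50 genes per fold change were raised, and 7 of 6638 unchanged genes were called. Noise was normal and independent between genes, with the fitted spread of each gene. The simulation had no arrays of low detection and no detection limit, so real recovery may differ for genes of low signal. The number of arrays limits the precision.

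The members and the gene lists were chosen with earlier results of these data known. All members were named. From the pathway list up to 4 rising and 4 falling genes with the smallest adjusted p among those that passed were named in each comparison (Edc4 and Xrn1 were added after their values were seen), and for Dicer1 and the member with the widest range of means the 5 genes with the highest r. Replicate numbers were not taken to pair arrays, since the labels give no batch shared by arrays of the same number. Of 30 same-number pairs of deviations, 3 correlated above 0.1 (-0.233 to 0.481). Pairs of different numbers were not computed, so these values cannot settle whether arrays are paired. Alternatives were no background correction, median scaling, the second table, a detection filter at 0.01 or none, every probe, eBayes with trend and robust, compared groups alone, a replicate block and each array of the compared groups left out. Leaving out the pair of arrays with least detection was added after seeing the data. Python 3.11.15 with matplotlib 3.10.9 and numpy 2.4.6 drew the figures.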

Additional observations from a re-analysis of the deposited data

How the results depend on the processing

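The counts of members that passed were 1 (KO iNKT against stage 1-2), 5 (KO iNKT against stage 3), 0 (KO T against WT T), 2 (stage 3 against stage 1-2), 0 (WT iNKT against WT T) and 0 (difference of the KO effects). Of all genes 3.01%, 29.9%, 0.146%, 20.1%, 23.6% and 0.175% passed in these comparisons. The 1 against stage 1-2 was Prkra, which was tested only through its detection on the KO iNKT arrays. With the replicate number as a block they were the same 1, 5, 0, 2, 0 and 0. With each array of the compared groups left out in turn (6 arrays in the first 4 comparisons, 9 in the fifth and 12 in the sixth) they ranged over 0 to 1, 3 to 5, 0, 0 to 3, 0 to 2 and 0 to 1. The 1 against stage 1-2 became 0 with median scaling, no detection filter, the compared groups alone and without both arrays of least detection. The 5 became 0 with median scaling and 4 with compared groups alone. The 0 between T cells became 1, Ago2, in 4 settings given above. The 2 between stages became 0 with median scaling or the stages alone and 1 without both arrays of least detection, where Ago2 was at 0.64 (adjusted p = 0.0963, limma). The 0 between lineages became 1 without those arrays.

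With median scaling the median change over all genes was -0.43, -0.19, 0.16, -0.22, -0.19 and -0.61 in these comparisons, against -0.01, -0.01, 0.00, 0.00, -0.05 and 0.00 with quantile normalization. Relative to the median under median scaling, Prkra changed by 0.71 and 0.94 against stage 1-2 and stage 3, Dicer1, Ago2, Drosha and Xpo5 by -0.86, -0.87, 1.00 and 0.62 against stage 3, Ago2 by 0.97 between T cells, and Dicer1 and Ago2 by 0.81 and 0.57 between stages. Of the changes recomputed for single members, 660 stayed on their side of the threshold, 30 lost a call, 11 gained one and 28 turned sign. No value that turned had passed. With median scaling these were, against stage 1-2, Drosha -0.02, Dicer1 -0.45, Tarbp2 -0.37 and Dgcr8 -0.19, between T cells Dicer1 0.18, and in the difference Dicer1 -0.63 and Xpo5 -0.48. Without both arrays of least detection they were Dicer1 -0.07 and Tarbp2 -0.02 against stage 1-2 and Dicer1 -0.01 in the difference. With 1 array left out, sign turned within these ranges: against stage 1-2, Dicer1 -0.07 to 0.26, Tarbp2 -0.32 to 0.30 and Dgcr8 -0.02 to 0.22, against stage 3, Dgcr8 -0.37 to 0.20, between T cells, Dicer1 -0.17 to 0.08 and Prkra -0.01 to 0.22, between stages, Xpo5 -0.41 to 0.17 and Dgcr8 -0.12 to 0.45, between lineages, Tarbp2 -0.18 to 0.03, and in the difference, Dicer1 -0.01 to 0.31.

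Over all genes, counts were 206, 2047, 10, 1377, 1614 and 12, and ranged over 71 to 461, 1450 to 2139, 0 to 8, 1005 to 1275, 1106 to 1661 and 0 to 118 with 1 array left out. With median scaling they were 0, 160, 0, 90, 259 and 0, and with the compared groups alone 14 against stage 1-2, 17 between T cells and 804 between stages. Between T cells they were 28 without background correction and in the authors' normalized values, 18 with no filter and 26 with trend and robust, and in the difference 5, 5 and 1 in the first 3 of these and 0 without both arrays of least detection. The slide as a block was not run, as the headers name no slides. The low signal of Dgcr8 and Prkra limits what 3 arrays can show.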
